A study of Mus musculus with 150 samples.

Results

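The genes examined here are 40 mitotic cell cycle genes, taken from a list fixed by gene name: cyclins and their kinase Cdk1, the mitotic kinases, the spindle checkpoint, the kinetochore, spindle motors, cytokinesis proteins and the proliferation marks Mki67 and Top2a. Of the 40, 38 had a probe set annotated to a single gene, out of 17097 genes measured in all, and all 38 were among the 15695 genes tested. Ccnb1 and Nuf2 were not analysed here. Each gene was represented by its probe set with the highest mean over all arrays, and the mitotic mean of an array is the average log2 level of the 38 genes on it.

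The arrays were 150 whole-lung profiles, each from 1 adult male mouse, after inhalation of 120 ppm styrene (79 mice) or of air (71 mice) for 26, 52, 78 or 104 weeks. Styrene is an industrial solvent whose oxidation in mouse lung depends largely on Cyp2f2, a cytochrome P450 of the airway club cells. The mice were C57Bl/6 wild type (WT, 31 mice), C57Bl/6 CYP2F2(-/-) (KO, 39 mice), C57Bl/6 CYP2F2(-/-) with the transgenes that the labels give as 2F1,SA13,2B6 (TG, 38 mice), and CD-1, an outbred stock (42 mice). Both CYP2F2(-/-) lines lacked the gene in air and styrene groups alike, and the sources used here do not give the promoter that drives the transgenes. There were 31 groups of 2 to 10 mice, and no WT air group at 26 weeks. A tumour or tumorous lesion was recorded for 10 of the mice, all at 104 weeks, 7 of them CD-1; tumour tissue was not assayed apart from the rest of the lung.

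Cell division is driven by Cdk1 bound to its cyclins. The anaphase-promoting complex, switched on by Cdc20, then destroys the cyclins and ends mitosis. The genes for these proteins are transcribed together late in the cell cycle and are repressed in resting cells. Most cells of the adult lung rest, and dividing cells there include leukocytes as well as epithelial and endothelial cells. In whole lung, more dividing cells and more RNA per dividing cell cannot be told apart.

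All arrays had the lung markers Sftpc, a surfactant protein of alveolar type 2 cells, and Scgb1a1, a club cell secretory protein, at 13.6 or above on the log2 scale. Cyp2f2 group means lay between 12.1 and 12.4 in the KO and TG lines and between 13.1 and 13.5 in WT and CD-1, so the targeted gene was lower in every group of both CYP2F2(-/-) lines, with signal remaining on its probe set. The wells named in the array labels repeat, so the arrays came from at least 4 plates: 88 on plate 1, 14 on plate 2 (most of them 78-week styrene mice of the C57Bl/6 lines), and at 104 weeks 22 air mice on plate 3 and 22 styrene mice on plate 4, with 4 styrene mice on either of these. At 104 weeks, therefore, exposure and plate cannot be told apart, nor can plate and the step from earlier weeks to 104 weeks. Many of the 38 probe sets were dim: 16 had a mean above the mean array median of 4.16, and 4 had a mean under the filter level of 3.07.

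The mean of the mitotic genes varied little between lines, exposures and ages, and 2 mice lay far above all others. On 148 of the 150 arrays the mitotic mean lay between 3.69 and 4.78, with a median of 4.14 and an SD of 0.19. On the 2 remaining arrays it was 7.33 and 5.73. Both came from CD-1 mice that breathed air for 104 weeks, replicates 3 and 5, and both carried the tumour label. The other 5 mice of that group, none with a tumour label, lay at 4.11 ± 0.19 (SD, n = 5).

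**Figure D1:**
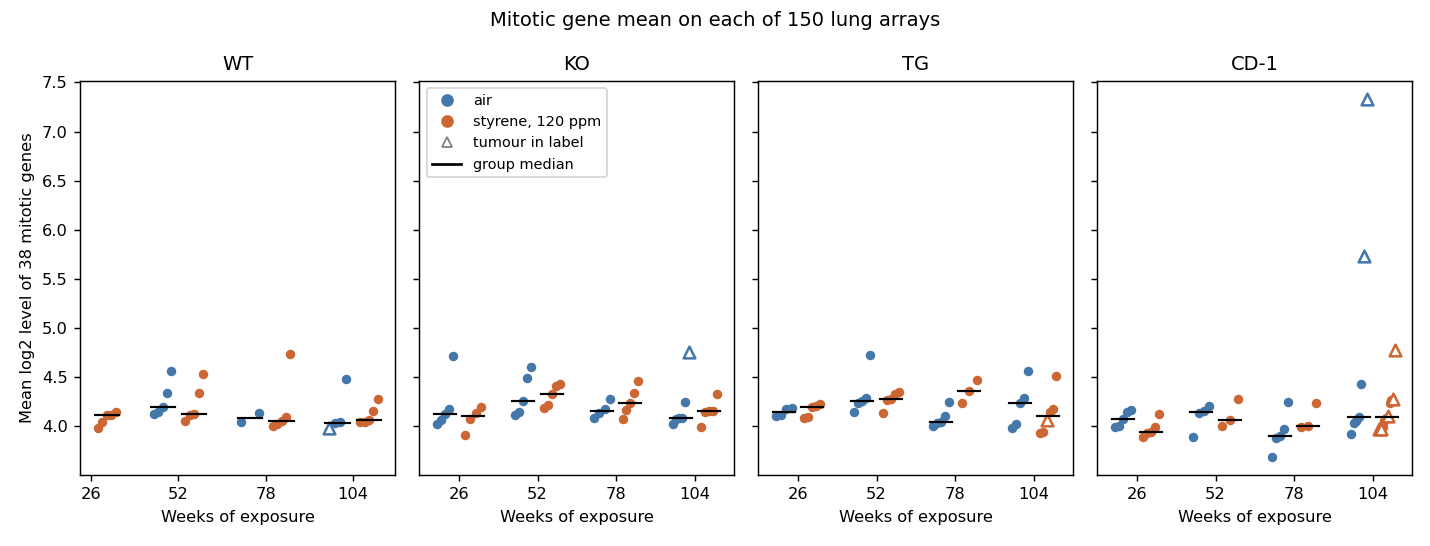
Mean log2 level of the 38 mitotic genes (y axis) on each array, by line (panels) and weeks of exposure (x axis), with air in blue, styrene in orange, mice with a tumour label as open triangles and group medians as black bars. CD-1 air replicates 3 and 5 at 104 weeks stand at 7.33 and 5.73, and the other 148 arrays lie between 3.69 and 4.78.

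The remaining 30 groups had mean levels from 3.94 (CD-1, air, 78 weeks; SD 0.203, n = 5) to 4.36 (TG, styrene, 78 weeks; SD 0.12, n = 3). In the WT line the group means ran from 4.08 ± 0.069 (SD, n = 5; styrene, 26 weeks) to 4.27 ± 0.184 (SD, n = 5; air, 52 weeks). In KO they ran from 4.08 ± 0.123 (SD, n = 4; styrene, 26 weeks) to 4.32 ± 0.217 (SD, n = 5; air, 52 weeks). In TG air mice the mean was 4.15 ± 0.042 (SD, n = 4) at 26 weeks, 4.33 ± 0.227 (SD, n = 5) at 52 weeks, 4.09 ± 0.099 (SD, n = 5) at 78 weeks and 4.22 ± 0.233 (SD, n = 5) at 104 weeks. In CD-1 air mice it was 4.08 ± 0.077 (SD, n = 5), 4.10 ± 0.138 (SD, n = 4) and 3.94 ± 0.203 (SD, n = 5) at 26, 52 and 78 weeks. The SDs within the 30 groups ran from 0.042 to 0.311, the same order as the steps between group means.

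On CD-1 air replicate 3 every one of the 38 mitotic genes stood at its highest level of all 150 arrays. On replicate 5, 27 of the 38 had their second highest level. Against the other 15 CD-1 arrays of 104 weeks, replicate 3 was above all of them for 38 of 38 mitotic genes, where 17.4% of all genes tested were, and replicate 5 for 33 of 38, where 7.97% of all genes were. None of the 38 lay below the other 15 arrays on either, where 26.4% of all genes did on replicate 3 and 17.9% on replicate 5. The excesses given below are log2 differences from the median of these 15 arrays, turned into folds; on dim probe sets a fold from such values understates a change.

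Among the cyclins, the kinase Cdk1 and its activators, Ccna2, the cyclin of S phase and mitotic entry, reached 9.61 on replicate 3 and 7.32 on replicate 5, 38.04 and 7.81 times the median of the other 15 arrays. Its lowest, median and highest levels in the CD-1 air group of 104 weeks were 3.78, 4.45 and 9.61, and in the styrene group 3.83, 4.39 and 5.83. Cdk1 itself was at 9.47 and 7.65 on the 2 arrays, and at 4.18 to 7.10 on the other 15. Ccnb2, a B-type cyclin that partners Cdk1, was 15.4 and 4.89 times the median, and Cks2, a small subunit of cyclin-dependent kinases, 6.16 and 3.24 times. Cdkn3, a phosphatase that acts on these kinases, was 7.97 and 2.01 times the median, and Melk, a kinase of dividing cells, 7.42 and 2.70 times. Foxm1, a transcription factor of mitotic genes, was the member of this role that moved least, at 1.82 and 1.56 times.

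The mitotic kinases and the chromosomal passenger complex, which corrects faulty spindle attachments, were led by Birc5 (survivin). Its level was 9.30 on replicate 3 and 7.98 on replicate 5, against 3.92 to 6.16 on the other 15 arrays, which made it 26.8 and 10.7 times their median. Cdca8 (borealin), another subunit of that complex, was 15.7 and 7.74 times the median, and Aurkb, its kinase, 14.03 and 3.44 times. Plk1 was 10.3 and 3.87 times and Aurka, a spindle pole kinase, 8.82 and 2.79 times the median. Ttk, a checkpoint kinase, was 10.6 times the median on replicate 3 but within the range of the other arrays on replicate 5 (3.27, against 2.70 to 3.50). Nek2, a centrosome kinase, was 2.71 times the median on replicate 3 and likewise within the range on replicate 5 (6.32, against 5.74 to 6.91).

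In the spindle checkpoint and the anaphase-promoting complex, Cdc20, the activator of that complex, was at 9.02 and 7.58, against 4.75 to 6.71 on the other 15 arrays. Ube2c, its ubiquitin-conjugating enzyme, was 13.3 and 4.28 times the median. Cdca3, a trigger of mitotic entry, was 22.5 and 3.33 times, Bub1, a checkpoint kinase, 14.8 and 2.65 times, Mad2l1, a checkpoint protein, 6.83 and 2.71 times, and Bub1b, which inhibits Cdc20, 4.24 and 2.06 times the median. Of the kinetochore genes, Spc25 was 11.1 and 4.01 times the median and Cenpa, the centromeric histone, 6.60 and 1.74 times. Ndc80 was 4.76 and 2.31 times, Cenpe, a kinetochore motor, 5.23 and 1.46 times, and Cenpf 5.20 and 1.48 times the median; Cenpf on replicate 5 was not above all of the other 15 arrays.

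Among spindle proteins and motors, Nusap1, a microtubule-bundling protein, was at 8.16 and 6.36, against 3.03 to 4.65 on the other 15 arrays. The kinesins Kif11, Kif20a and Kif2c were 12.6, 13.04 and 4.55 times the median on replicate 3, and 1.65, 3.45 and 2.30 times on replicate 5. Tpx2, which activates Aurka, was 9.39 and 3.90 times and Prc1, of the central spindle, 10.7 and 4.25 times the median. On their chosen probe sets, Kif23 (1.48 and 1.06 times) and Hmmr (1.94 and 1.28 times) moved least. In cytokinesis, Racgap1 was 16.8 and 4.39 times, Ect2 9.21 and 2.01 times and Anln 3.24 and 2.23 times the median; Ect2 on replicate 5 was not above all of the other arrays.

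The proliferation marks had among the highest excesses. Top2a, the topoisomerase that untangles chromosomes, was at 9.54 on replicate 3 and 7.77 on replicate 5, against 3.33 to 5.45 on the other 15 arrays, or 46.0 and 13.4 times their median. Mki67 (Ki-67), which coats mitotic chromosomes, was at 9.13 and 7.02, against 3.38 to 5.23, or 37.1 and 8.63 times the median. For both genes the remaining 5 air mice and the 10 styrene mice overlapped.

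**Figure D2:**
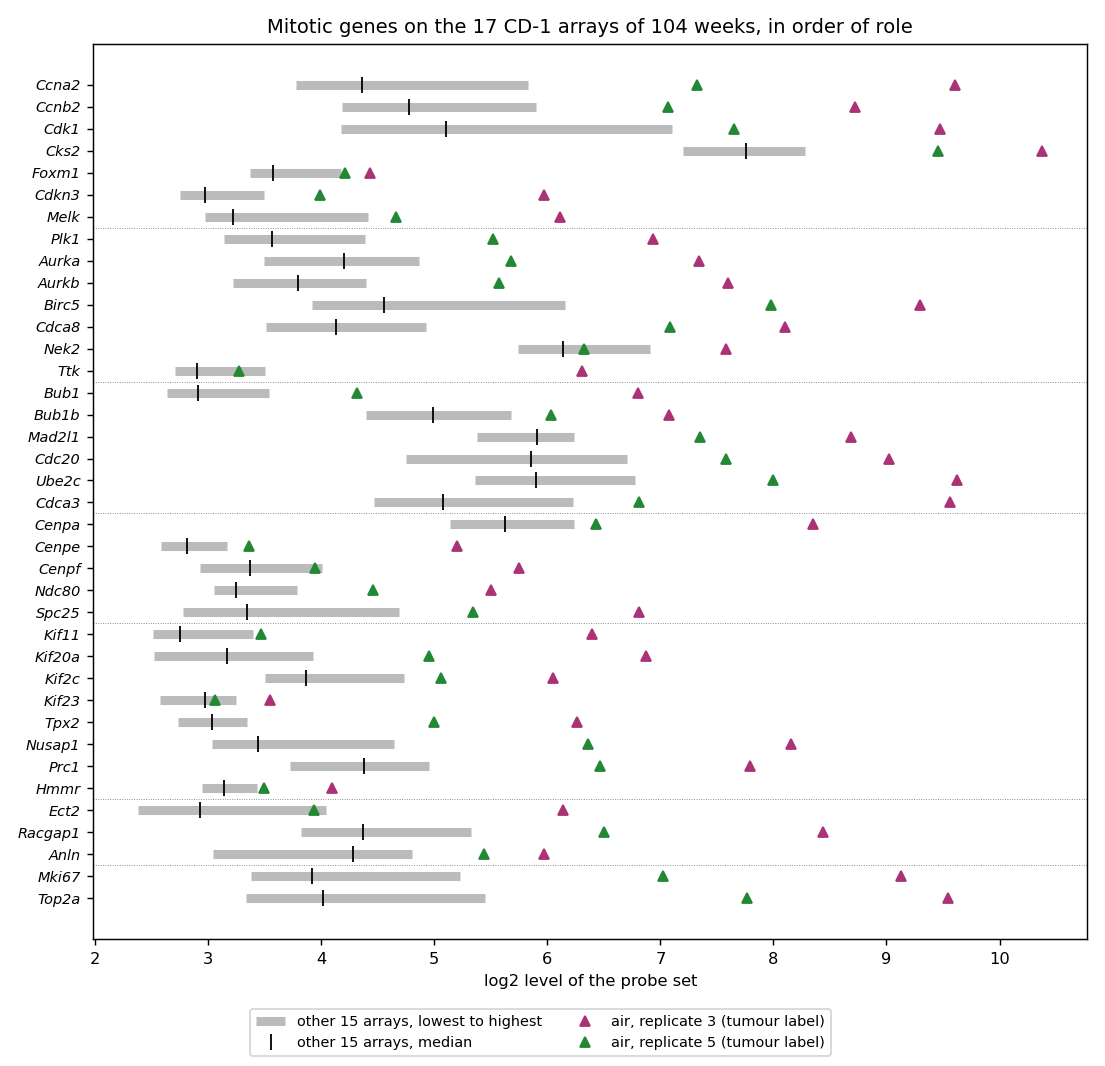
log2 level (x axis) of each mitotic gene (rows, in order of role) on the CD-1 arrays of 104 weeks: grey bars span the other 15 arrays, ticks mark their median, and triangles mark air replicates 3 (purple) and 5 (green). Replicate 3 is above the grey bar in 38 of 38 rows and replicate 5 in 33.

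Whether a tumour label went with the mitotic genes was asked in the CD-1 mice of 104 weeks, with exposure as a term (7 mice with the label, 10 without). All 38 genes were higher in labelled mice, with a median log2 difference of 0.95, but none passed an adjusted p of 0.05 in limma, and 0% of all genes tested did; 32 of the 38 had an unadjusted p under 0.05. Top2a differed by 1.41 (SE 0.58, adjusted p = 0.497, limma). The 2 high arrays described enter this fit as labelled mice. Without them 0 of 38 genes had an unadjusted p under 0.05, and the median difference was 0.11. No labelled air mouse is then left. The 2 labelled air mice are the 2 high arrays described, so a comparison among air mice restates their levels and is no independent test: 27 of 38 mitotic genes were called higher, where 2.66% of all genes were called, with a median difference of 2.41. Among styrene mice, 5 with the label and 5 without, 0 of 38 were called, 0 of 38 had an unadjusted p under 0.05, and the median difference was 0.11. The difference between the exposures in the effect of the label was not tested.

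Labelled mice were not all high. The 5 CD-1 styrene mice with the label had mitotic means of 3.97, 4.78, 4.28, 3.97 and 4.11, and the 5 without it ranged from 3.99 to 4.27. Labelled replicates 4 (4.78) and 5 (4.28) were above all unlabelled mice, and labelled replicates 2 and 6 were below all of them. In the C57Bl/6 lines, the labelled WT air mouse had 3.98, the lowest of its 4 mice, the labelled TG styrene mouse had 4.06, and the labelled KO air mouse had 4.76, the highest of its 6 mice, whose next value was 4.25.

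Other genes of the cell cycle were high on the same 2 arrays. Of 70 further mitotic genes measured, 65 were above all of the other 15 CD-1 arrays on replicate 3 and 43 on replicate 5. Of 47 genes of DNA replication and S phase, 45 and 21 were. Of 19 cell cycle brakes and pocket proteins, a list that holds cyclin-dependent kinase inhibitors and retinoblastoma family genes, 6 were above and 6 below all of the other arrays on replicate 3, and 6 above and 2 below on replicate 5. The mean of that list was 7.12 and 7.13, above all of the other 15 arrays (6.69 to 7.05) on both. Of all genes tested, 17.4% were above and 26.4% below all of the other arrays on replicate 3. On replicate 5 these shares were 7.97% and 17.9%.

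Markers of other cells also stood apart on replicate 3. The mean of 10 B cell markers was 8.94, against 5.46 to 7.56 on the other 15 arrays, and 9 of the 10 were above all of them and 1, Cr2 (2.85, against 3.25 to 5.38), below: Ms4a1 (CD20) was at 11.8, against 4.38 to 10.9, and Cd79a, part of the B cell receptor, at 9.73, against 5.88 to 7.77. The germinal centre B cell list was at 5.31, against 4.99 to 5.29, with 2 of 7 genes above the other arrays and 3 below. The mean of 6 plasma cell markers was 7.48, against 5.26 to 5.90. Epithelial, endothelial and fibroblast lists were lower there than on all of the other 15 arrays: club cell 8.75 (against 9.76 to 10.2), ciliated cell 5.07 (6.11 to 7.31), endothelial cell 8.32 (8.92 to 9.70), fibroblast 7.19 (7.68 to 8.23) and alveolar type 2 11.2 (11.3 to 11.8). The alveolar macrophage list was not: it was at 8.455, inside the range of the other 15 arrays (8.014 to 9.008). Of its 14 genes, 5 were above and 5 below all of those arrays. Heart muscle genes, which enter a lung sample with the large vessels, were at 4.23 (4.98 to 7.37). The part of these cell mixtures in the mitotic excess was not tested.

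On replicate 5 these lymphoid lists did not stand apart: the B cell list was at 6.45, the plasma cell list at 5.80 and the T cell list at 5.86 (5.44 to 6.58 on the other 15 arrays), all inside the range of the other arrays. The club cell list was at 9.55 and the alveolar type 2 list at 11.1, both below all of the other 15 arrays. Among the 10 genes outside the mitotic list with the largest excess on replicate 5, chosen after their values were seen, were Klrg1 (10.7, against 4.13 to 6.77), Klrd1 (8.62, against 3.57 to 7.30) and Klrk1 (7.85, against 3.46 to 6.71), receptors of natural killer and T cells. Ncr1, a natural killer cell receptor looked up after these, was at 8.36, against 4.32 to 6.63. On replicate 3 the levels of these 4 genes were 4.56, 4.31, 4.66 and 4.42. The leading genes of replicate 3, chosen in the same way, included Blk, a B cell kinase (11.2, against 5.16 to 8.01), and Bank1, a B cell adaptor (10.6, against 3.68 to 8.67).

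**Figure D3:**
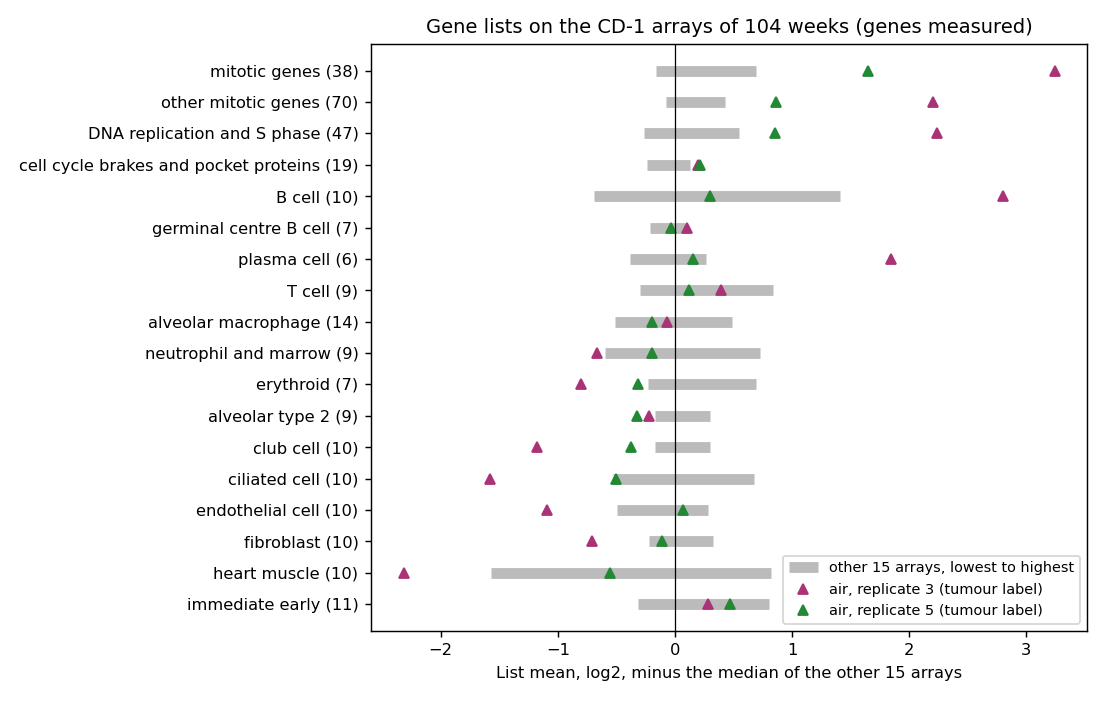
Mean log2 level of each gene list on the CD-1 arrays of 104 weeks, as the difference from the median of the 15 arrays other than air replicates 3 and 5 (x axis); grey bars span the 15 arrays and triangles mark replicates 3 (purple) and 5 (green), with the number of genes measured in brackets. The mitotic, S phase and cell cycle brake lists are above the bars on both arrays, and the B cell, germinal centre B cell and plasma cell lists on replicate 3.

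Styrene against air was compared within each line and week, 15 comparisons in all, as the question the exposure design poses. Before 104 weeks none of the 38 mitotic genes was called in any of the 11 comparisons, where few of all genes were called either (limma). The share of all genes called was 0.401% and 0.00637% in WT at 52 and 78 weeks, and 0%, 0.0127% and 0% in KO at 26, 52 and 78 weeks. It was 0%, 0.0127% and 0.191% in TG and 0.65%, 0.0701% and 0.121% in CD-1 at these weeks. The number of the 38 with an unadjusted p under 0.05 was 0 to 2 in these comparisons. The difference in mitotic mean ran from -0.14 (KO, 26 weeks) to 0.27 (TG, 78 weeks), and the exposed and air mice overlapped in each. In KO at 78 weeks all styrene arrays lay on plate 2 and all air arrays on plate 1. Exposure and plate were therefore separated in that comparison only through the plate term. With no plate term its count of mitotic genes called did not change. Most WT styrene arrays of 78 weeks also lay on plate 2, and the WT air arrays on plate 1.

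The TG comparison of 78 weeks had the largest rise before 104 weeks: 3 styrene mice at 4.36 ± 0.12 (SD, n = 3) against 5 air mice at 4.09 ± 0.099 (SD, n = 5). Each styrene mouse was above the air mean. Cdc20 was at 6.07, 6.84 and 6.23 in styrene and at 5.29, 5.87, 5.51, 5.47 and 5.52 in air, with no overlap, and differed by 0.62 with the plate as a term (SE 0.433, adjusted p = 0.383, limma). Foxm1, at 3.65, 3.96 and 3.90 against 3.09, 3.55, 3.52, 3.72 and 3.41 with overlap, differed by 0.59 with the plate as a term (SE 0.225, adjusted p = 0.155, limma). Members moved in both directions on these arrays. Bub1 was lower in styrene (2.765 to 3.114) than in air (3.248 to 4.02), without overlap. So was Anln, at 3.463 to 4.171 in styrene and 4.214 to 4.536 in air. These are levels with no plate term, and with that term neither gene was called. The share of all genes without overlap is not given here. All 3 styrene arrays lay on plate 2 and all 5 air arrays on plate 1. With no plate term 7 of the 38 genes were called, where 46.8% of all genes were. Without CD-1 air replicates 3 and 5 of 104 weeks, 0 were called, where 0.217% of all genes were, and 8 had an unadjusted p under 0.05.

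At 104 weeks CD-1 mice had 27 of 38 mitotic genes lower in styrene and 0 higher, where 63.6% of all genes were called in either direction and 20.7% lower. The median log2 difference of the 38 was -0.54, against 0.16 over all genes. Top2a was at 3.94, 5.45, 9.54, 4.15, 7.77, 4.83 and 4.64 in the 7 air mice; its lowest, median and highest levels in the 10 styrene mice were 3.33, 3.72 and 5.25. It differed by -1.81 (SE 0.316, adjusted p = 5.19e-07, limma). Nusap1 differed by -1.53 (SE 0.258), Mki67 by -1.52 (SE 0.281), Ccna2 by -1.07 (SE 0.318) and Prc1 by -1.07 (SE 0.181). The role groups were called lower in 5 of 7 cyclin and Cdk1 genes, 5 of 7 kinase and passenger genes, 2 of 6 checkpoint genes, 4 of 5 kinetochore genes, 6 of 8 spindle genes, 3 of 3 cytokinesis genes and 2 of 2 proliferation marks. Of 67 further mitotic genes tested 33 were lower and 5 higher, and of 47 S phase genes 16 were lower and 1 higher.

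These calls rested on air replicates 3 and 5. Without both, 12 of 38 genes were called, 7 higher and 5 lower, where 58.4% of all genes were. The median difference of the 38 was then 0.09, against 0.15 over all genes. Without replicate 3 alone 11 were called, and without replicate 5 alone 18. The difference in mitotic mean went from -0.63 to 0.07. The 7 called higher without the pair were Bub1b, Cdc20, Cdca3, Cdca8, Cdk1, Cenpa and Plk1; the 5 called lower were Anln, Ect2, Nusap1, Prc1 and Top2a. Cdk1 then differed by 0.76 (SE 0.276, adjusted p = 0.0149, limma), where with all mice it had differed by -0.34 (SE 0.325, adjusted p = 0.361, limma). Of the further mitotic genes 21 were then higher and 8 lower, and of the S phase genes 25 and 7. The shares of all genes higher and lower in that fit are not given here. Exposure and plate cannot be told apart in it. Anln kept its direction, at -0.99 (SE 0.166, adjusted p = 1.87e-07, limma) with the pair and -0.61 (SE 0.167, adjusted p = 0.00117, limma) without.

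**Figure D4:**
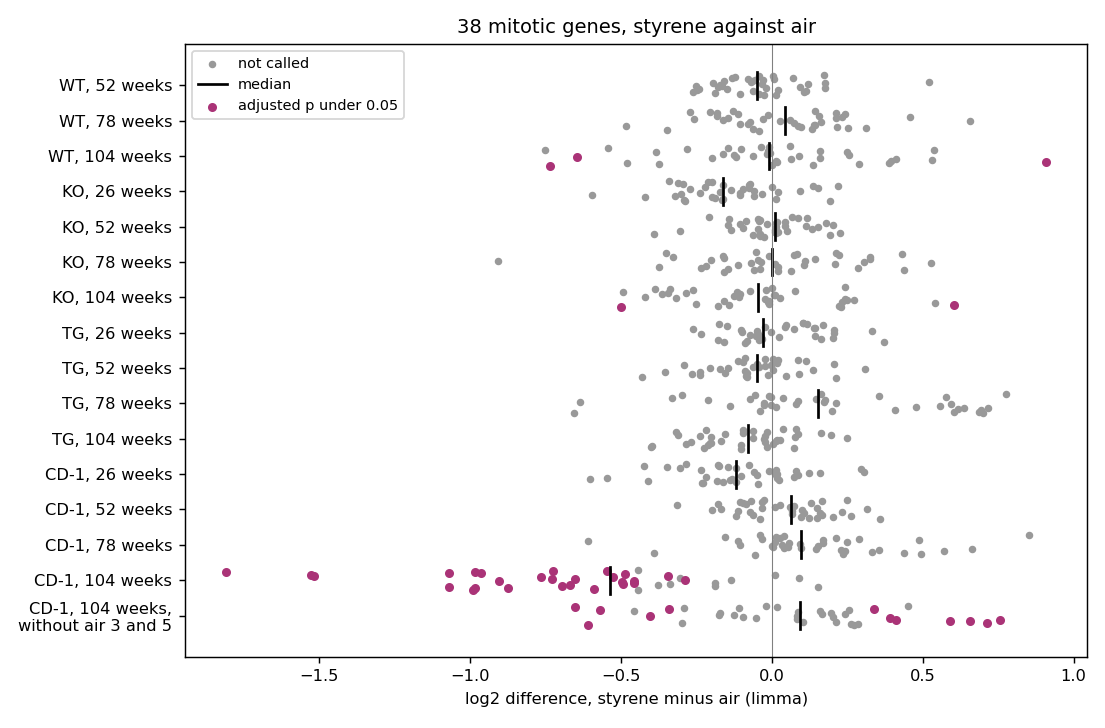
log2 difference between styrene and air (x axis, limma) for each of the 38 mitotic genes in the 15 comparisons of line and week, with the median as a black bar and genes of adjusted p under 0.05 in purple. The CD-1 row of 104 weeks has its median at -0.54, and the lowest row gives the same comparison without air replicates 3 and 5, with a median of 0.09.

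In the C57Bl/6 lines at 104 weeks few mitotic genes were called, and in WT and KO their share was below that of all genes. In WT, 3 of 38 (7.89%) were called, where 48% of all genes were, 29.6% higher and 18.3% lower: Cdc20 was higher, and Anln, a cytokinesis scaffold, and Ect2, which starts the cleavage furrow, were lower. Cdc20 was at 4.90, 5.37, 4.57 and 5.18 in the 4 WT air mice and at 6.06, 6.09, 5.89, 5.85 and 5.71 in the 5 styrene mice, without overlap, a difference of 0.91 (SE 0.296, adjusted p = 0.00783, limma). Anln was at 4.30, 4.71, 4.44 and 4.07 in air and at 3.74, 3.63, 3.26, 3.96 and 3.62 in styrene, again without overlap, a difference of -0.74 (SE 0.226, adjusted p = 0.0048, limma). Without CD-1 air replicates 3 and 5, which enter through the common spread, 5 were called, Nusap1 (lower) and Plk1 (higher) in addition, where 49.9% of all genes were. The call of Ect2 was lost without WT air replicate 2 (adjusted p = 0.0947, limma).

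In KO, 2 of 38 (5.26%) were called, where 39.4% of all genes were, 23.9% higher and 15.4% lower. Bub1b was higher by 0.61 (SE 0.228, adjusted p = 0.0271, limma) and Anln lower by 0.50 (log2 difference -0.50, SE 0.204, adjusted p = 0.0414, limma). Without CD-1 air replicates 3 and 5 the count was 6, where 41.4% of all genes were called. The count fell to 0 without KO styrene replicate 1 or 3 and to 1 without replicate 2 or 4. Cdc20 in KO was at 6.46, 6.28, 6.00, 5.63 and 5.80 in the 5 styrene mice, and its lowest, median and highest levels in the 6 air mice were 4.89, 5.52 and 6.41; the groups overlapped.

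In TG, 0 of 38 mitotic genes and 0% of all genes were called at 104 weeks, and 0 of the 38 had an unadjusted p under 0.05. Cdc20 was at 6.00, 5.77, 5.67, 5.63 and 5.29 in air, and from 5.17 to 5.55 with a median of 5.43 in styrene. Styrene mice of the other lines were at 5.63 or above in KO and at 5.69 or above in WT and CD-1. Anln was at 4.79, 4.26, 4.43, 3.86 and 4.07 in TG air and from 3.85 to 4.45 in styrene. Tests of whether the styrene difference itself varied between lines (WT minus KO, TG minus KO and CD-1 minus WT, over the weeks they share) called 0 of 38 genes each, where 0.0892%, 0% and 0.0701% of all genes were called; 0, 0 and 2 of the 38 had an unadjusted p under 0.05.

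Genotype made no called difference in air. KO against WT and TG against KO called 0 of 38 mitotic genes, where 0.319% and 0.344% of all genes were called, and 0 of the 38 had an unadjusted p under 0.05 in either. CD-1 against WT called 1 of 38, where 17.4% of all genes were called and 6.89% were higher: Mki67 was higher in CD-1 by 0.64 (SE 0.238, adjusted p = 0.0472, limma). Without air replicates 3 and 5 Mki67 differed by 0.29 (adjusted p = 0.254, limma), and 15.9% of all genes were called; 1 mitotic gene was, lower in CD-1, Cdca3 (-0.48, SE 0.157, adjusted p = 0.0234, limma). The call of Mki67 was also lost in 15 of 27 fits that left out 1 array.

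With age in air mice of KO, TG and CD-1, 6 of 38 mitotic genes (15.8%) were called between 78 and 26 weeks, where 52.7% of all genes were, 20.8% higher and 31.9% lower. Ube2c fell by 0.81 (SE 0.202, adjusted p = 0.000425, limma). In TG it was at 6.07, 6.09, 6.44 and 6.40 at 26 weeks and at 5.35, 5.79, 5.11, 5.18 and 5.26 at 78 weeks. Its levels at these weeks did not overlap in TG and overlapped in KO and CD-1. Cdk1 fell by 0.74 (SE 0.251, adjusted p = 0.01, limma), and Foxm1 and Kif2c fell by 0.21 and 0.28, calls that were lost in 9 and 13 of 28 fits that left out 1 array. Nek2 rose by 0.54 (SE 0.105, adjusted p = 8.36e-06, limma) and Bub1 by 0.48 (SE 0.16, adjusted p = 0.0081, limma). Without CD-1 air replicates 3 and 5 of 104 weeks the count was 10, 3 higher and 7 lower, where 54.3% of all genes were called; the weeks compared do not hold those mice, which enter through the common spread. Between 52 and 26 weeks Nek2 was the only member called, where 2.39% of all genes were and 1.13% rose, with a rise of 0.44 (SE 0.106, adjusted p = 0.011, limma). Without CD-1 air replicates 3 and 5 it was again the only one, where 3.35% of all genes were called. Nek2 in TG was at 5.65, 5.38, 5.65 and 5.63 at 26 weeks, at 5.93, 5.99, 5.99, 5.92 and 6.62 at 52 weeks and at 6.10, 6.48, 6.07, 6.22 and 6.29 at 78 weeks. Its 26-week values in TG lay below those of 52 and 78 weeks. Mean Ube2c in TG air mice was 6.25, 6.32, 5.34 and 6.00 at 26, 52, 78 and 104 weeks, and mean Cdk1 was 5.33, 5.82, 4.80 and 5.34, so both were lowest at 78 weeks and higher again at 104 weeks. The TG air arrays of 104 weeks lay on plate 3 and the earlier ones on plate 1. Age and plate cannot be told apart in that last step.

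Beside the 2 arrays described, 13 others stood above the median of their group by more than 0.27, which is 3 times the scaled median absolute deviation of all 150 arrays. The 13 came from 13 different groups. CD-1 air 104 weeks replicate 2 (4.43, no tumour label) shared its group with the 2 arrays described. Of the 15 high arrays, 11 were from air and 4 from styrene, and 4 of the 15 carried a tumour label. The highest of the 13 were CD-1 styrene 104 weeks replicate 4 (4.78, tumour label), KO air 104 weeks replicate 6 (4.76, tumour label), WT styrene 78 weeks replicate 4 (4.74), TG air 52 weeks replicate 5 (4.72) and KO air 26 weeks replicate 4 (4.72). On KO air 26 weeks replicate 4, 38 of 38 members were above the group median, led by Cdk1 (1.37 above), Mki67 (1.35) and Birc5 (1.24). On KO air 104 weeks replicate 6 Cdk1 was 1.74, Aurkb 1.68 and Ccna2 1.55 above the group median, while Bub1 was 0.36 below (-0.36). Ccna2 was among the 3 leading members on 8 of the 13 arrays.

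The 13 arrays were chosen for the mitotic mean, and other lists are given beside them as values, leaving CD-1 air replicates 3 and 5 out of their group. The further mitotic list was above all other arrays of the group on 13 of 13, and the S phase list on 12. The B cell and plasma cell lists were highest of their group on 9 of 13 each and the T cell list on 8. The B cell list was 0.79 above the group at the median, with a range from -1.23 to 1.61. The alveolar macrophage list was highest of its group on 5 of 13. At the median it was 0.519 above the group (range -0.295 to 1.855), and the T cell list 0.503 above. The endothelial list was below all others of the group on 10 of 13, and over all 13 it differed from the median of the group's arrays outside the high ones by -0.60 to -0.05. The part of these lists in the mitotic mean was not tested.

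The mitotic genes moved together from mouse to mouse. Over 150 arrays, as deviations from the group mean, the correlation of each gene with the mean of the other 37 had a median of 0.80 and ran from 0.29 (Foxm1) to 0.93 (Ccna2), as a description of arrays that share labelling and normalization. Much of this came from the 2 high arrays: without them the median was 0.58, and without all 15 high arrays 0.37. Over 148 arrays Ccna2 (0.86), Cdk1 (0.86), Ccnb2 (0.84), Birc5 (0.82) and Top2a (0.82) were the most alike, and Foxm1 (-0.03), Hmmr (0.06), Bub1 (0.10) and Ndc80 (0.13) the least. The genes outside the list most like the mitotic mean over 150 arrays were Cdca5 (0.89), a cohesin protector, Pclaf (0.89), which binds the replication clamp, Mcm6 (0.88), a replicative helicase subunit, Rrm2 (0.88), which makes deoxynucleotides, and Asf1b (0.88), a histone chaperone; Cdca5, Pclaf, Rrm2, Asf1b and Uhrf1 were among the 10 most alike over 148 arrays as well.

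For members that moved little the probe set mattered. Of the 38 genes, 21 had several probe sets. The chosen, brightest set of Hmmr had a correlation of 0.36 with the other members, and a dimmer set of the same gene 0.80, with 5.89 on replicate 3 against a median of 2.76. The chosen set of Kif23 had 0.36, and a dimmer set 0.58, with 4.73 on replicate 3 against a median of 2.60. The chosen set of Nek2 had 0.52, and its dimmest set -0.19. The 4 sets of Foxm1 lay between 0.14 and 0.48.

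**Figure D5:**
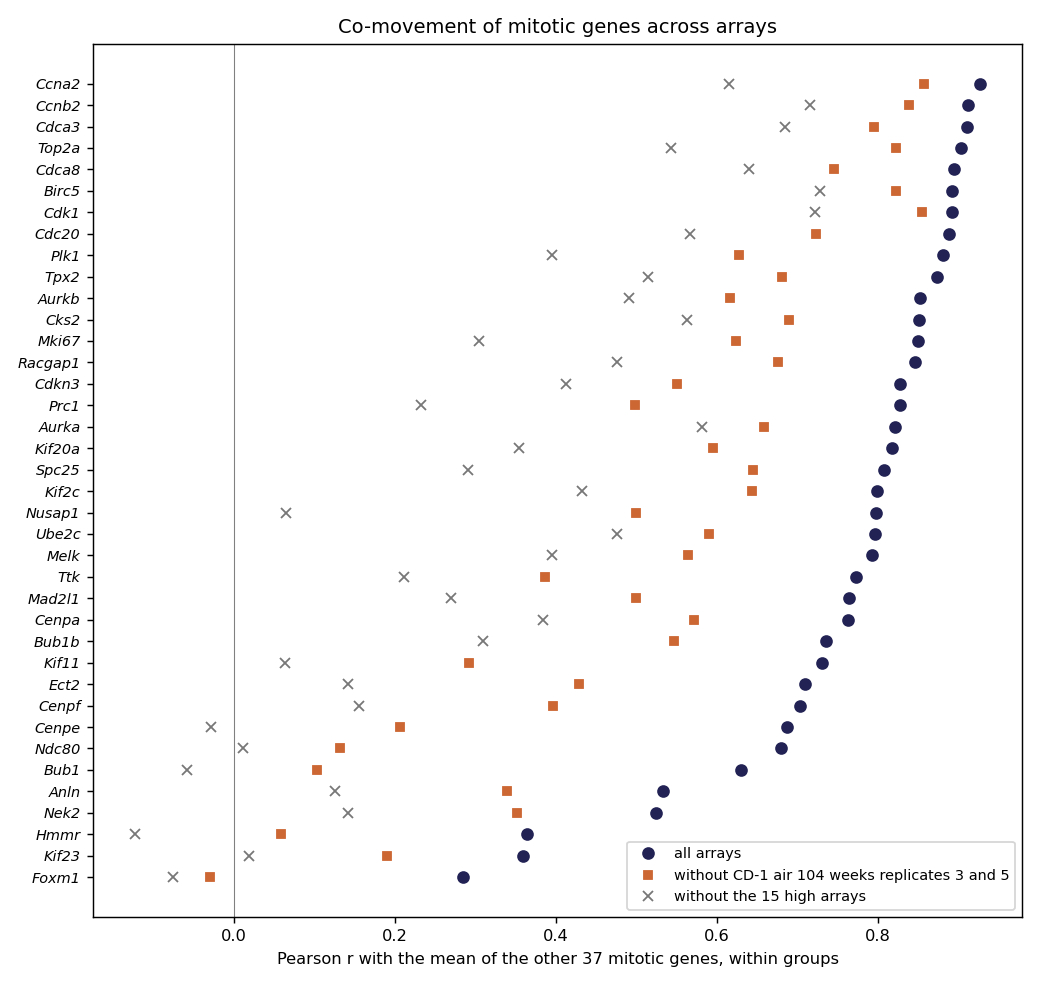
Pearson correlation (x axis) of each mitotic gene (rows) with the mean of the other 37, as deviations from group means, over 150 arrays (circles), without CD-1 air replicates 3 and 5 (squares) and without the 15 high arrays (crosses). Ccna2 is at 0.93 and Foxm1 at 0.29 over 150 arrays, and the median falls from 0.80 to 0.58 and 0.37.

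Genes of this kind are known to carry CCAAT boxes, bound by the factor NF-Y, and the cell cycle homology region (CHR), the site of the complex that silences them in resting cells. The promoter windows of the members, RefSeq sequence of GRCm38.p6 from 250 bases before to 50 bases after the start, were searched on both strands for CCAAT (or ATTGG) and for TTTGAA (or TTCAAA) and TTCGAA. Windows were found for 33 of the 38 genes, 35 windows in all. A CCAAT box was in 28 of 35 windows (80%), against 37.4% of all 32851 windows, and a CHR-type match in 28 of 35 (80%), against 19.2%. Both were in 25 of 35 (71.4%), against 7.52% of all windows. The matches are letters in a window and no binding was measured. The 5 members with both motifs and the highest correlation with the rest over 150 arrays are shown as examples of windows that hold both, with the matches in capitals, written 5′ to 3′ in the sense of the gene:
Ccnb2: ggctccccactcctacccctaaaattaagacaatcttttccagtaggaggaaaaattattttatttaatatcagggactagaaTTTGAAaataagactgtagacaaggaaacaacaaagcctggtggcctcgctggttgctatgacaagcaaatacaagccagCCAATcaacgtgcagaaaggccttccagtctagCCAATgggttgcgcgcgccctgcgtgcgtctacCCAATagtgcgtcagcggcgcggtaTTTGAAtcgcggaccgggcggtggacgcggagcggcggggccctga
Cdca3: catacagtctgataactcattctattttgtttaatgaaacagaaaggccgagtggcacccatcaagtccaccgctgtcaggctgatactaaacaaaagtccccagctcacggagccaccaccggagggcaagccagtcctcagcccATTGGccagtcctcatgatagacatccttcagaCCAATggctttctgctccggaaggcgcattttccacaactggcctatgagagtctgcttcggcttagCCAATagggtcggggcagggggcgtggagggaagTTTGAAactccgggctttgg
Top2a: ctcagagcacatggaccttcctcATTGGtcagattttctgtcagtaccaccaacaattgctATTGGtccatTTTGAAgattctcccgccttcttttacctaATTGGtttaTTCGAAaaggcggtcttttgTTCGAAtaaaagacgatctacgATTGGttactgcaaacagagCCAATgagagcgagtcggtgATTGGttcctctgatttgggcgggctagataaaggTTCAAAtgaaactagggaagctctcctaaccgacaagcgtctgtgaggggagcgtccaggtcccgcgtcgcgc
Cdca8: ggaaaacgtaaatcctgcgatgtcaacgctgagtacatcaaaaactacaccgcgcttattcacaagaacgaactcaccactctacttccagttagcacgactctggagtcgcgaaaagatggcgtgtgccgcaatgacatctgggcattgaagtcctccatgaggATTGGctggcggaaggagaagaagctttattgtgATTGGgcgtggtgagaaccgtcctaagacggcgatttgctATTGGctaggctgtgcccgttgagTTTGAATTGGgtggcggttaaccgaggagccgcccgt
Cdk1: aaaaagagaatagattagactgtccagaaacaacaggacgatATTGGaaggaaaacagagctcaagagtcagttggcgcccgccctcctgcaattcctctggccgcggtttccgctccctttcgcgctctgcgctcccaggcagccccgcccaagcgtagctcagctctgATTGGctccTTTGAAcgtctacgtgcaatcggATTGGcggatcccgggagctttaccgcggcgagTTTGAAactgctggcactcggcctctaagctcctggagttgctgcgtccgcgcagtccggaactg

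Ccnb2 is at chr9:70421505-70421804, minus strand, and its CCAAT boxes begin 87, 54 and 21 bases before the start. Cdca3 is at chr6:124829926-124830225, plus strand, with boxes 104, 71 and 4 bases before the start. Top2a is at chr11:99024140-99024439, minus strand, and has 6 boxes and 4 CHR-type matches, the last 23 bases before the start. Cdca8 is at chr4:124936868-124937167, minus strand, with boxes 85, 51 and 11 bases before the start and, after it, a further box that shares its first base with the end of a CHR-type match. Cdk1 is at chr10:69352863-69353162, minus strand, with boxes 208, 80 and 48 bases and CHR-type matches 71 and 15 bases before the start. Top2a and Cdk1 had 46.0 and 20.6 times the median of the other 15 CD-1 arrays on air replicate 3. Birc5 and Nusap1, whose windows held neither motif, had 26.8 and 26.3 times that median. Whether the motifs go with the excess was not tested.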

How the data were processed

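Total RNA from whole lung was hybridised to HT MG-430 PM arrays, 1 per mouse. The deposited values are log2 signals that the authors made with RMA, and Partek is also named, per the submitters' processing notes, with no versions; RMA normalizes all arrays to 1 distribution, and array medians were 3.95 to 4.26. No sequencing depth applies: the number of arrays limits precision. Of 45037 probe sets, 28898 had 1 gene in the platform annotation, 551 several and 15588 were not listed; 28689 symbols were updated through Entrez IDs. Per gene the probe set with the highest mean was kept. Genes above the 30th percentile of their array on at least 3 arrays were tested (15695 of 17097). limma 3.58.1 (R 4.3.3) fitted all groups with plate 2 as a term, with Benjamini-Hochberg adjustment over 15695 genes and a threshold of 0.05; a gene is called where its adjusted p is below it. The tumour label was fitted on the CD-1 mice of 104 weeks with exposure as a term. The fit was tested on simulated data. Named genes are all members by role, the members called or else the 3 highest and lowest, up to 4 genes of other lists and the 10 most alike; others are said to be chosen after their values were seen. The members and lists were chosen with earlier results of these data known. No 2 arrays held identical values. Labels call the mice biological replicates. Same-numbered air and styrene arrays deviated together in every pair at 1 of 15 comparisons, TG at 26 weeks (lowest correlation 0.32), from the data alone; its count with the replicate block was 0, as without it. Exposure weeks are those of the sample labels; the treatment protocol's differ.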

Additional observations from a re-analysis of the deposited data

Results flagged for a closer look

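Chance flags about 1 in 20 groups; 27 groups were checked for the mitotic mean and 18 group-by-gene sets for single members. In 6 groups the highest array lay apart from the rest: WT styrene 78 weeks replicate 4 (4.74, next 4.10), WT air 104 weeks replicate 2 (4.48, next 4.04), TG air 52 weeks replicate 5 (4.72, next 4.29), KO air 26 weeks replicate 4 (4.72, next 4.18), KO air 104 weeks replicate 6 (4.76, next 4.25) and CD-1 styrene 104 weeks replicate 4 (4.78, next 4.28). On the last of these Ccna2 (5.83, next 4.88), Cdk1 (7.10, next 5.94) and Cdc20 (6.71, next 6.13) stood apart as well. In the CD-1 air group of 104 weeks Cenpa stood apart on replicate 3 (8.35, next 6.43); the mitotic mean of that group did not meet the rule, since replicate 5 lies between replicate 3 and the rest.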

How the results depend on the processing

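Most counts of mitotic genes called stayed within 1.5 times under the alternatives tried (filters, probe set rule, fit, centring, plate term, replicate block, arrays left out). Exceptions follow, and the cause was not tested unless fewer genes or mice entered. In CD-1 at 104 weeks 27 called became 9 with a stricter filter (16 members tested), 16 with CD-1 fitted apart, 8 without tumour-labelled mice and 12 without air replicates 3 and 5. Without tumour-labelled mice the log2 difference turned positive for Aurkb (0.29), Birc5 (0.35), Ccna2 (0.013), Ccnb2 (0.081), Cdca8 (0.33), Cdkn3 (0.037), Cks2 (0.17), Kif20a (0.073), Ndc80 (0.13) and Plk1 (0.26). Without air replicates 3 and 5 it did for Aurkb (0.26), Birc5 (0.28), Ccna2 (0.10), Ccnb2 (0.21), Cdca8 (0.41), Cdkn3 (0.083), Cks2 (0.20), Kif20a (0.17), Melk (0.086), Ndc80 (0.16), Plk1 (0.34) and Tpx2 (0.018). In WT at 104 weeks 3 became 5 with the C57Bl/6 lines fitted apart, 7 without tumour-labelled mice and 5 without air replicates 3 and 5. In KO at 104 weeks 2 became 5, 7 and 6 in the same fits, and 1 with arrays centred on their median. In TG at 78 weeks 0 became 7 with no plate term and 2 when the leading component of within-group variation was a term, and the difference in mitotic mean was 0.42 over members above the array median. For 78 against 26 weeks 6 became 3 with the stricter filter and 10 both without tumour-labelled mice and without air replicates 3 and 5. For 52 against 26 weeks 1 became 0 with the mean of all probe sets. For CD-1 against WT 1 became 0 with no filter and with the stricter one. The tumour label called 27 in air mice alone, where the labelled mice are the 2 high arrays. High arrays numbered 9 with the median over members, and the co-movement of 0.80 became 0.58 and 0.37 without the 2 and the 15 high arrays. Leaving out 1 array (in KO and TG only in groups of up to 5 mice, so no KO air mouse of 104 weeks) gave 11 to 30 called in CD-1 at 104 weeks, 2 to 4 in WT, 0 to 3 in KO, 0 to 1 in TG at 78 weeks (1 without styrene replicate 1), 4 to 7 for 78 against 26 weeks and 0 to 1 for CD-1 against WT. With the replicate block (consensus correlation 0.0286) the counts were 27 in CD-1, 3 in WT and 2 in KO at 104 weeks, and no other count changed. Dim probe sets limit the folds.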

Other observations

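Over the 148 arrays without CD-1 air replicates 3 and 5 of 104 weeks, 3 genes with no place in the cell cycle lists were among the 10 most like the mitotic mean: Lpxn (correlation 0.73), an adaptor of leukocyte adhesion, and C1qc (0.73) and C1qa (0.73), complement subunits made by macrophages. As deviations from group means, the list means correlated with the mitotic mean at 0.83 for S phase, 0.60 for alveolar macrophage, 0.57 for plasma cell, 0.51 for T cell, 0.38 for B cell, -0.34 for club cell and -0.68 for endothelial cell genes. These are descriptions over arrays that share labelling and normalization. On CD-1 air replicate 5, Clca1, a secreted protein of mucous cells, was at 9.87, against 2.18 to 3.34 on the other 15 CD-1 arrays of 104 weeks, and Arg1, an arginase of macrophages, at 8.54, against 3.83 to 5.36; both were chosen after their values were seen.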
